A study of Homo sapiens with 15 samples.

Results

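Li-doped Ag2S NPs are silver sulfide nanoparticles that carry lithium and emit near-infrared light, and this comparison sets HaCaT cells given them at 320 μg/mL for 24 h against untreated HaCaT cells (control). HaCaT cells are human keratinocytes from skin, an established line with mutant p53 that goes on dividing in culture. The libraries were chosen by their labels alone, 3 of Li-doped Ag2S NPs at 320 μg/mL (replicates 13, 14 and 15) and 3 of control (replicates 1, 2 and 3), which are 6 of the 15 libraries of the series. The other 9 hold cells given undoped Ag2S NPs at 320 μg/mL (replicates 7, 8 and 9), which entered the same model, and cells given either particle at 160 μg/mL, which are not used here. The control is labelled untreated, the labels do not say that the 3 libraries of a group came from separate cultures, and no library of cells given lithium or the carrier alone was analysed here. The p-values therefore measure the spread between these libraries, which may be technical.

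Paired reads of 150 bases had been turned by the authors into FPKM values per gene and library, which are fragments divided by transcript length and by the library's fragments. Per-library values below are FPKM in the order replicate 13, 14 and 15 for treated cells and 1, 2 and 3 for control cells. A change is the log2 fold change of FPKM + 0.1 from limma, on which low genes appear to change less than they do, and a gene rose or fell where the adjusted p (Benjamini and Hochberg over all genes tested) was under 0.05. In bulk RNA, fewer cells of one kind and less RNA per cell cannot be told apart.

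Keratinocytes of the skin divide in the basal layer, where they hold to a basement membrane through integrins and carry keratins 5 and 14, and then move up, stop dividing and build the cornified envelope. After wounding they leave this path for a time, take up the keratins of activated skin, spread with a stronger actin cytoskeleton and secrete matrix and proteases. Silver can displace zinc from metallothioneins and bind thiols, and lithium is known to inhibit the kinase GSK3 of the Wnt pathway and the enzymes that recycle inositol phosphates.

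Replicate 15 stood apart from the other treated libraries. Its FPKM summed to 698579, against 631117 and 626624 in replicates 13 and 14 and 590451 to 601823 in control. Its median absolute difference from the control mean was 0.552 on the log2 scale, against 0.402 and 0.369 in the other treated libraries. The 79 ribosomal protein genes took 24.4% of its summed FPKM, against 21.1% and 21.5% in replicates 13 and 14 and 19.0% to 19.6% in control. Results that hang on this library are given with and without it.

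All 12 keratinocyte markers (KRT5, KRT14, TP63, KRT6A, PKP1, DSG3, DSC3, COL17A1, TRIM29, SFN, ITGA6 and ITGB4) were expressed in every library, and their summed FPKM ran from 28289 to 33761 in treated libraries and from 10871 to 11319 in control libraries. Markers of other skin cells were listed at low values, with sums of 3.88 to 7.04 in treated and 13.2 to 16.3 in control libraries over the fibroblast markers, 0.30 to 0.55 in treated and 3.54 to 4.20 in control libraries over the endothelial ones and 2.27 to 3.07 in treated and 1.86 to 1.96 in control libraries over the melanocyte ones. Of the fibroblast markers LUM and DCN fell, TWIST2 was not called, COL1A2, COL3A1, PDGFRA and FAP were listed near 0 in both groups, and COL6A3 was listed at 0 throughout. The endothelial marker CDH5 was listed at 0, 0 and 0 FPKM in treated libraries, against 3.43, 3.02 and 2.89 FPKM in control libraries. Of the immune markers only CD68, which epithelial cells also express, was above a few FPKM, at 9.08, 10.2 and 11.1 in treated and 9.52, 10.5 and 10.9 in control libraries. The part of these genes in the results was not tested. A value at or near 0 does not show here that a gene is silent, since S100A11, a gene that keratinocytes usually express strongly, was listed at 0, 0.45 and 0.52 FPKM in treated libraries, against 0, 0 and 0.21 FPKM in control libraries. It was chosen for this after its values were seen.

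Most genes tested changed, and more of them fell than rose. Of 11903 genes whose mean FPKM reached 1, 2018 rose (17.0%) and 5313 fell (44.6%), 555 and 1065 of them more than 2-fold (4.66% and 8.95%). The median change of all these genes was -0.26. Scaling by the median ratio of a library to the library mean brought that median to -0.00086 and the calls to 3366 risen (28.3%) and 3092 fallen (26.0%). All 2018 risen genes stayed risen under it and 3092 of the fallen ones stayed fallen, while the other falls lost their call. In 2204 genes (18.5%) every treated library lay above every control library and in 5785 (48.6%) below. Without replicate 15, 1987 genes rose and 5013 fell, and no gene turned from one to the other. Counts of risen and fallen genes after the median-ratio scaling stand in parentheses below where it turned the balance of a group or moved a count by more than 1.5 times, beside the median change of the group.

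The largest rise was that of TGM2, which encodes a transglutaminase that cross-links matrix proteins (chromosome 20 of GRCh38, 38127387 to 38166578). It measured 54.3, 49.4 and 61.3 FPKM in treated libraries, against 0.58, 0.84 and 1.11 FPKM in control libraries, a rise of 5.90 (SE 0.17, adjusted p = 8.66e-10). The 15 largest rises also held those of the keratin genes KRT16 (4.79) and KRT17 (3.85), the neural adhesion molecule gene L1CAM (4.76), OLFM2 (4.57), the matrix genes TNC (4.24) and EGFL7 (3.87), the protease inhibitor gene SERPINE2 (3.77), the envelope gene LCE3E (4.06), ODC1 (3.57), TPRG1 (3.53), the exchange factor gene NGEF (3.46), the retinol dehydrogenase gene RDH16 (3.43) and the activin binding protein gene FST (3.37). L1CAM was listed at low values in control cells, with 12.96, 13.1 and 10.8 FPKM in treated libraries, against 0.33, 0.24 and 0.55 FPKM in control libraries. NGEF went the same way, with 8.92, 8.41 and 9.34 FPKM in treated libraries, against 0.9, 0.61 and 0.67 FPKM in control libraries.

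The largest falls were led by genes of glandular and mucosal epithelia. OLFM4, a secreted glycoprotein of gut crypts, was all but lost, with 0.08, 0.04 and 0.03 FPKM in treated libraries, against 20.7, 17.9 and 21.1 FPKM in control libraries (-7.07). FOXA1, a pioneer transcription factor of glandular epithelia, had 0.51, 0.32 and 0.16 FPKM in treated libraries, against 21.8, 20.4 and 21.0 FPKM in control libraries, a change of -5.70 (SE 0.28, adjusted p = 4.11e-08). The others among the 15 largest falls were those of UBD (-5.55), SCGB1A1 (-5.16), STRA6 (-5.10), IFI44L (-4.98), RARB (-4.74), MMP12 (-4.56), ELF3 (-4.44), ATP6V1B1 (-3.91), ID4 (-3.90), LUM (-3.86), AP003419.1 (-3.71), HAS2 (-3.59) and SCEL (-3.49). AP003419.1 varied most among them, with 5.29, 2.28 and 0 FPKM in treated libraries, against 17.3, 9.26 and 17.5 FPKM in control libraries. Without replicate 15 its change was -1.99, with an adjusted p of 0.0132.

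**Figure D1:**
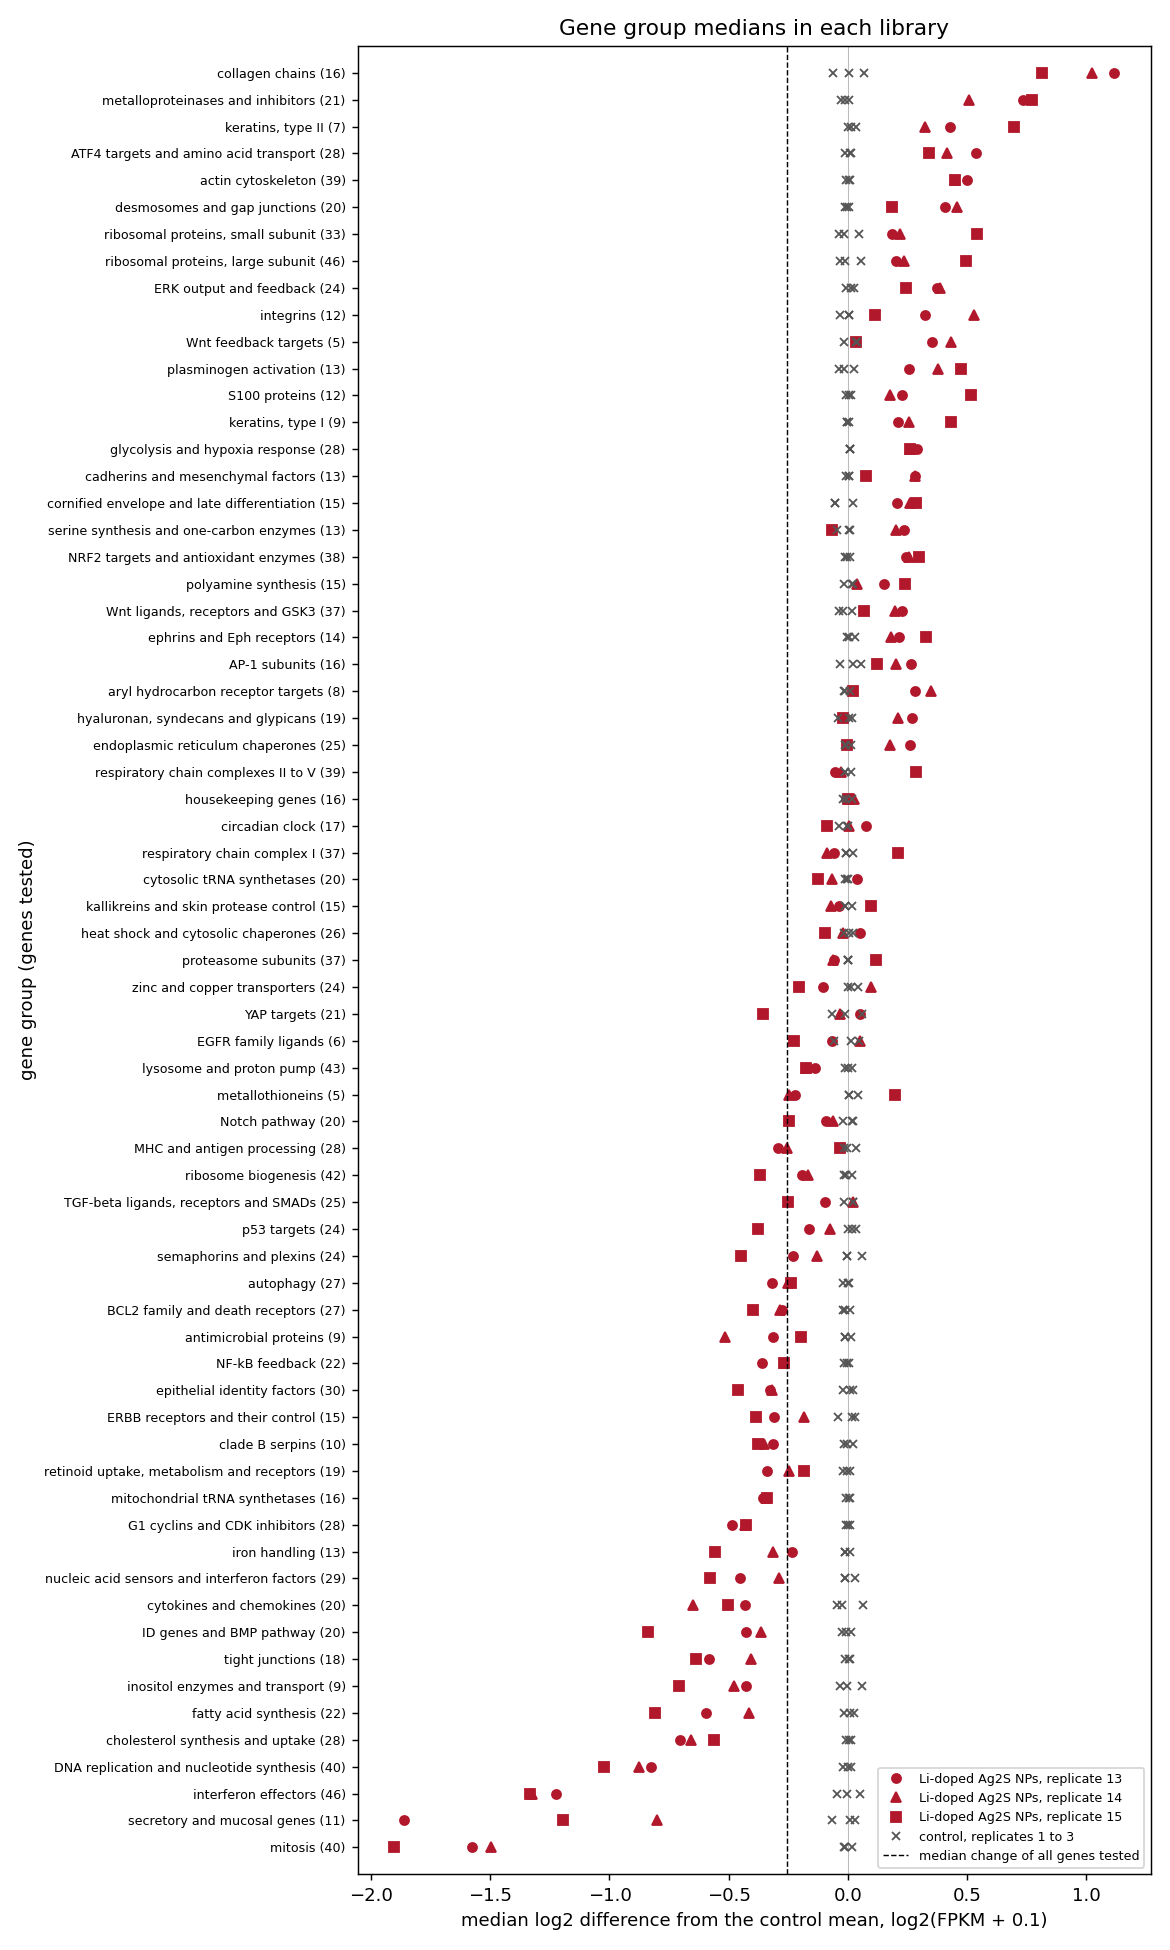
Median log2 difference from the control mean of the tested genes of 67 gene groups in each treated library (points, x axis) and in the 3 control libraries (crosses), one group per row (y axis), values of log2(FPKM + 0.1) as deposited. The dashed line marks the median change of all genes tested, -0.26; the mitosis group lies at -1.58, -1.50 and -1.90 and the collagen chains at 1.12, 1.02 and 0.82 in replicates 13, 14 and 15.

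The keratins split. Of 9 type I keratins tested, 6 rose and 2 fell (median 0.27), and of 7 type II keratins, 4 rose and 2 fell (median 0.48, scaled 4 and 1), where 17.0% of all genes tested rose and 44.6% fell. Keratins of type I and type II pair to form filaments, and the pair KRT6A and KRT16, with KRT17, marks activated skin while KRT5 and KRT14 mark the basal layer. KRT16, on chromosome 17 of GRCh38 from 41609778 to 41615899, had 466, 399 and 545 FPKM in treated libraries, against 17.1, 18.0 and 15.2 FPKM in control libraries. KRT17 reached 7844, 7312 and 10544 FPKM in treated libraries, against 568, 578 and 615 FPKM in control libraries. KRT6A had 2598, 2270.3 and 2995 FPKM in treated libraries, against 467, 505 and 497 FPKM in control libraries, a rise of 2.41 (SE 0.09). In each of the 3 the treated libraries lay well above every control library. The basal pair rose as well, KRT14 to 10791, 10725 and 14116 FPKM in treated libraries, against 2625, 2669.7 and 2610.2 FPKM in control libraries (2.16). KRT5 had 9403, 9297 and 10284 FPKM in treated libraries, against 4033, 4225 and 4126 FPKM in control libraries (1.23). KRT1, the type II keratin of the layers above, had 201, 212 and 204 FPKM in treated libraries, against 86.2, 84.3 and 83.2 FPKM in control libraries, a rise of 1.28. Its partner KRT10 had 27.4 ± 0.95 FPKM in treated cells and 22.7 ± 1.05 FPKM in control cells (SD, n = 3 each, 0.27).

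Against these stood the keratins of moist epithelia and a basal keratin. KRT13 had 84.0, 86.3 and 84.9 FPKM in treated libraries, against 576, 638 and 610.2 FPKM in control libraries (-2.83). Its type II partner KRT4 had 6.92, 6.70 and 7.83 FPKM in treated libraries, against 41.5, 43.5 and 44.2 FPKM in control libraries (-2.58). KRT15, which marks basal and hair follicle stem cells, had 1491, 1380 and 1792 FPKM in treated libraries, against 3156, 3025 and 2923 FPKM in control libraries (-0.97). The simple epithelial keratins moved little, with rises of 0.48 for KRT8, 0.23 for KRT18 and 0.31 for KRT19 and a change of -0.30 for KRT7, whose fall was lost after scaling. All keratin genes together took 5.35% to 6.15% of the summed FPKM in treated libraries, against 2.20% to 2.27% in control libraries. KRT14, KRT16, KRT17 and KRT6A have near-identical copies or pseudogenes with which they can share reads, and KRT6B, at 1.08 FPKM in the treated mean and 0.21 FPKM in the control mean, and KRT6C, at 0.53 FPKM in the treated mean and 0.0767 FPKM in the control mean, lay below the filter. KRT10 lost its call without control replicate 2 (0.24), KRT18 without control replicate 1, 2 or 3 (0.22 to 0.24) and KRT7 without control replicate 1, 2 or 3 or replicate 13 or 14 (-0.33 to -0.21).

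**Figure D2:**
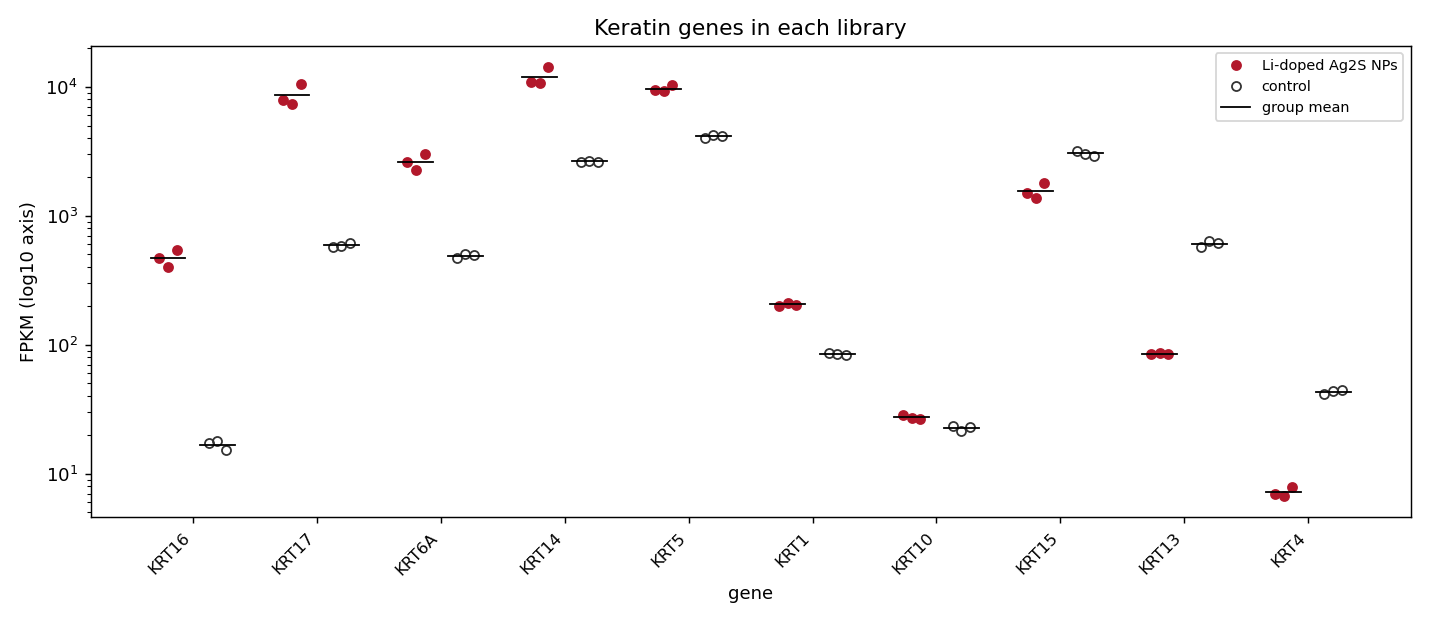
FPKM of 10 keratin genes (x axis) in each library on a log10 axis (y axis), treated libraries as filled circles left of control libraries as open circles, with the group mean as a bar. KRT16, KRT17, KRT6A, KRT14 and KRT5 lie higher in all 3 treated libraries and KRT13, KRT4 and KRT15 lower.

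Genes of the envelope that keratinocytes lay down as they cornify moved both ways. Of 15 envelope and late differentiation genes tested, 7 rose and 5 fell (median 0.23), and with every library scaled to an equal sum 5 rose and 6 fell. Of the small proline-rich proteins SPRR1B rose to 252, 226 and 209 FPKM in treated libraries, against 38.4, 43.4 and 37.4 FPKM in control libraries (2.52), and SPRR1A rose by 2.07, while SPRR2A, SPRR2D, SPRR2E and SPRR4 lay below the filter and were not tested. CSTA, a protease inhibitor of the envelope, rose by 0.84, and ELOVL4, an enzyme of very long fatty acids, by 2.05. LCE3E, of the late envelope, had 6.10, 4.26 and 7.02 FPKM in treated libraries, against 1.17, 0.23 and 0 FPKM in control libraries. The early envelope protein involucrin fell, with IVL at 1.65, 2.39 and 2.06 FPKM in treated libraries, against 9.05, 8.29 and 9.65 FPKM in control libraries (-2.10). SCEL, the sciellin gene, had 2.60, 2.64 and 2.61 FPKM in treated libraries, against 29.2, 30.0 and 31.9 FPKM in control libraries, and the envelope cross-linking enzyme gene TGM1 changed by -0.55. Of 25 members below the filter, LOR, the loricrin gene, RPTN and SBSN were listed at or near 0 in both groups. LCE3D lay at 1.78 FPKM in the treated mean and 0 FPKM in the control mean, and ALOXE3, a lipoxygenase of the barrier, at 1.40 FPKM in the treated mean and 0.187 FPKM in the control mean.

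Other gene families of the epidermis were divided in the same manner. Among 12 S100 proteins, small calcium binding proteins, 5 rose and 3 fell (median 0.28, scaled 8 and 2). S100A2 rose by 1.12 to 1642 ± 304 FPKM in treated cells, against 746 ± 3.82 FPKM in control cells (SD, n = 3 each). S100A7, or psoriasin, fell, with 13.3, 12.6 and 19.8 FPKM in treated libraries, against 55.3, 55.3 and 56.8 FPKM in control libraries. The calprotectin genes S100A8 (0.53) and S100A9 (-0.45), whose products pair with each other, went opposite ways, and the fall of S100A9 was lost after scaling. Of 15 kallikreins and other genes of skin protease control, 7 rose and 5 fell (median -0.00, scaled 7 and 3), and 5 rose and 6 fell when scaled to equal sums. The skin kallikreins KLK10 (-1.42) and KLK13 (-2.53) and their inhibitor SPINK5 (-1.53) fell, whereas the lysosomal protease gene CTSV had 129.6, 126 and 121 FPKM in treated libraries, against 35.1, 36.6 and 39.8 FPKM in control libraries (1.76). Of 10 clade B serpins, 4 rose and 5 fell (median -0.36). SERPINB3 (-1.57), SERPINB4 (-2.26) and SERPINB13 (-1.26) fell and SERPINB5, or maspin, rose by 0.86, although SERPINB3 and SERPINB4 are near-identical and can share reads. Of 9 antimicrobial genes, 3 rose and 4 fell (median -0.27, scaled 3 and 2), or 33.3% and 44.4%, beside 17.0% and 44.6% of all genes tested. The antimicrobial genes LCN2, at 209, 192 and 215 FPKM in treated libraries against 766, 761 and 774 FPKM in control libraries, and S100A7 fell, while the inhibitors SLPI (0.77) and PI3 (0.67) rose.

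Glandular and mucosal genes held some of the largest falls. Of 11 tested, 2 rose and 6 fell (median -1.29). SCGB1A1, a secretoglobin of airway epithelium, had 1.43, 0.75 and 1.37 FPKM in treated libraries, against 49.8, 35.4 and 49.1 FPKM in control libraries, CLCA4 changed by -3.63, the cobalamin binding protein gene TCN1 by -2.71 and the placental phosphatase gene ALPP by -2.43. AGR2, a disulfide isomerase of mucus-making cells, rose against them by 0.60. Of 30 factors that direct epithelial identity, 4 rose and 15 fell (median -0.33, scaled 8 and 12), or 13.3% and 50%, close to the 17.0% and 44.6% of all genes tested. ELF3 had 3.25, 3.46 and 3.77 FPKM in treated libraries, against 80.2, 74.0 and 80.0 FPKM in control libraries (-4.44). GATA3 had 9.56, 8.83 and 7.96 FPKM in treated libraries, against 32.2, 31.6 and 32.5 FPKM in control libraries (-1.86), and SOX7 (-1.72), BARX2 (-1.70) and EHF (-1.10) fell too. The keratinocyte master regulator TP63 went the other way, with 174, 186 and 129 FPKM in treated libraries, against 97.4, 105 and 103 FPKM in control libraries (0.66), as did KLF4 (0.79), CEBPA (1.15) and SOX15 (0.30). SOX15 lost its call without control replicate 3 or replicate 15 (0.21 to 0.25).

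Retinoids, the vitamin A derivatives that hold back cornification, are taken up through STRA6, oxidised by dehydrogenases and bound by RAR receptors. STRA6 had 0.8, 0.34 and 0.52 FPKM in treated libraries, against 22.0, 22.4 and 20.0 FPKM in control libraries. RARB, a receptor gene that retinoic acid itself induces, had 0.06, 0.05 and 0.37 FPKM in treated libraries, against 6.04, 5.84 and 5.78 FPKM in control libraries. DHRS3, which turns retinal back to retinol and is likewise induced by retinoic acid, had 17.1, 15.7 and 20.9 FPKM in treated libraries, against 109, 109 and 112 FPKM in control libraries (-2.62). All 3 lay below every control library. ALDH1A3, which makes retinoic acid, fell (-1.07) and RDH16, which oxidises retinol, rose to 9.22, 9.85 and 11.7 FPKM in treated libraries, against 0.8, 0.88 and 0.9 FPKM in control libraries. FABP5, a fatty acid and retinoic acid carrier, rose by 1.10. Of the 19 genes tested, 3 rose and 9 fell (median -0.37, scaled 8 and 7), or 15.8% and 47.4%, close to the 17.0% and 44.6% of all genes tested.

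Desmosome and gap junction genes rose more often than they fell, and tight junction genes fell more often than they rose. Of 20 desmosome and gap junction genes tested, 11 rose and 2 fell (median 0.34, scaled 16 risen), and of 18 tight junction genes, 1 rose and 11 fell (median -0.54, scaled 2 and 9). Connexin genes of wounded skin were among the risen, with GJB2 at 79.0, 79.9 and 71.2 FPKM in treated libraries, against 10.6, 9.88 and 11.4 FPKM in control libraries (2.84), and GJB6 at 3.57, 2.92 and 2.52 FPKM in treated libraries, against 0.33, 0.18 and 0.11 FPKM in control libraries (3.39). The plaque protein genes PKP1 (1.21) and JUP (0.55) rose, and PKP2 (-0.28) and PKP4 (-0.49) fell only without the scaling. Among tight junction genes OCLN, or occludin, fell to 2.01, 2.90 and 2.30 FPKM in treated libraries, against 7.24, 8.55 and 7.42 FPKM in control libraries, the scaffold genes TJP1 (-0.78) and TJP3 (-1.28) fell together, and so did the claudin genes CLDN1 (-0.49), CLDN7 (-0.73) and CLDN12 (-0.87). CLDN23 rose, with 1.07, 1.33 and 0.89 FPKM in treated libraries, against 0.3, 0.45 and 0.46 FPKM in control libraries (1.25). The cadherin of adherens junctions, CDH1, was not called as deposited, at 90.7 ± 8.94 FPKM in treated cells and 93.2 ± 3.89 FPKM in control cells (SD, n = 3 each, adjusted p = 0.667), and rose after scaling (0.22). PKP2 lost its call without control replicate 1, 2 or 3 or replicate 13 or 15 (-0.30 to -0.24).

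Markers of a shift towards mesenchyme moved in part. Of 13 cadherins and mesenchymal factors tested, 6 rose and 4 fell (median 0.26), and 4 rose and 5 fell when scaled to equal sums. FN1, the matrix protein fibronectin, had 175, 171 and 134 FPKM in treated libraries, against 31.8, 34.1 and 33.3 FPKM in control libraries (2.26). SNAI2, a repressor of epithelial genes, rose by 1.01 and CDH2, the neural cadherin, by 0.97. FOXC1 had 4.19, 3.97 and 3.31 FPKM in treated libraries, against 20.8, 16.8 and 18.8 FPKM in control libraries (-2.27), and CDH13 (-0.86) and S100A4 (-0.83) fell too. VIM, the gene of the mesenchymal filament vimentin, was listed at 0.17, 0.1 and 0.12 FPKM in treated libraries, against 0, 0 and 0 FPKM in control libraries, and the mesenchymal factor genes ZEB1 and ZEB2 were listed near 0 as well.

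Genes of the actin cytoskeleton and of the matrix rose. Of 39 actin cytoskeleton genes tested, a group that also holds tubulin genes, 27 rose and 6 fell (median 0.44). FLNA, the actin cross-linker filamin A, had 626, 595 and 675 FPKM in treated libraries, against 191, 177 and 189 FPKM in control libraries (1.76). FSCN1, the bundling protein fascin of cell protrusions, had 477, 435 and 511 FPKM in treated libraries, against 169, 162 and 141 FPKM in control libraries (1.60). ACTG1 (1.42), TPM1 (1.30), ACTN1 (1.16) and the tubulin genes TUBA1A (2.91) and TUBB3 (1.37) rose with them, and LMO7 (-1.10), TPM2 (-0.93), CNN3 (-0.66) and EZR (-0.44) fell. Actins and tubulins have near-identical copies, so their reads can be shared. Of 16 collagen chains tested, 13 rose and 1 fell (median 0.94, scaled 14 risen), led by COL5A3 with 12.3, 12.3 and 9.87 FPKM in treated libraries, against 1.41, 1.38 and 1.25 FPKM in control libraries (2.999). COL1A1, the α1 chain of type I collagen, had 34.6, 40.2 and 33.1 FPKM in treated libraries, against 6.70, 7.01 and 5.54 FPKM in control libraries (2.47), while COL1A2, the chain with which it normally assembles, was listed at 0.02, 0 and 0 FPKM in treated libraries, against 0, 0.09 and 0 FPKM in control libraries. COL7A1, which makes the anchoring fibrils below the epidermis, was the more abundant, with 319, 279 and 202 FPKM in treated libraries, against 108, 98.3 and 96.8 FPKM in control libraries (1.38). Of 12 integrins, 7 rose and 1 fell (median 0.31), with the hemidesmosome pair ITGB4 (0.92) and ITGA6 (0.86) among the risen and ITGB8 (-1.54) the one that fell. Without replicate 15, 2 of the integrins fell.

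Proteases that cut the matrix and their inhibitors rose side by side. Of 21 metalloproteinases and inhibitors tested, 12 rose and 5 fell (median 0.57). The stromelysin gene MMP10 had 525, 559 and 548 FPKM in treated libraries, against 62.3, 66.3 and 66.4 FPKM in control libraries (3.06). MMP9, a gelatinase gene, had 10.2, 9.50 and 11.9 FPKM in treated libraries, against 1.14, 1.07 and 1.09 FPKM in control libraries (3.14). The collagenase gene MMP1 had 538, 539.9 and 504 FPKM in treated libraries, against 125, 125 and 120.2 FPKM in control libraries (2.09). Another collagenase gene, MMP13, went down, with 226, 247 and 251 FPKM in treated libraries, against 391, 393 and 418 FPKM in control libraries (-0.73), as did MMP7 (-2.89) and the elastase gene MMP12, at 0.88, 0.7 and 0.64 FPKM in treated libraries, against 18.3, 19 and 21.4 FPKM in control libraries. The inhibitor genes TIMP2 (2.43) and TIMP1 (1.35) rose, TIMP1 to 171, 149 and 191 FPKM in treated libraries, against 63.1, 64.1 and 72.8 FPKM in control libraries.

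Plasmin is made from plasminogen by activators that serpins block. SERPINE2, one of these inhibitors, had 259.6, 248 and 245 FPKM in treated libraries, against 19.6, 17.7 and 17.8 FPKM in control libraries. The receptor gene PLAUR rose by 1.45, the activator gene PLAU was not called at 89.1 ± 2.75 FPKM in treated and 82.9 ± 3.87 FPKM in control cells (SD, n = 3 each), and the other activator gene PLAT fell (-0.98). Of 13 genes of plasminogen activation and clotting tested, 7 rose and 3 fell (median 0.28). Of 19 genes of hyaluronan, syndecans and glypicans, 8 rose and 3 fell (median 0.16). HAS2, which makes hyaluronan, fell to 0.34, 0.32 and 0.4 FPKM in treated libraries, against 5.06, 5.86 and 5.20 FPKM in control libraries, while its receptor CD44 rose by 0.73 and SULF2, which trims sulfate from heparan chains, had 292, 306 and 279.6 FPKM in treated libraries, against 87, 96.3 and 100.3 FPKM in control libraries (1.63).

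**Figure D3:**
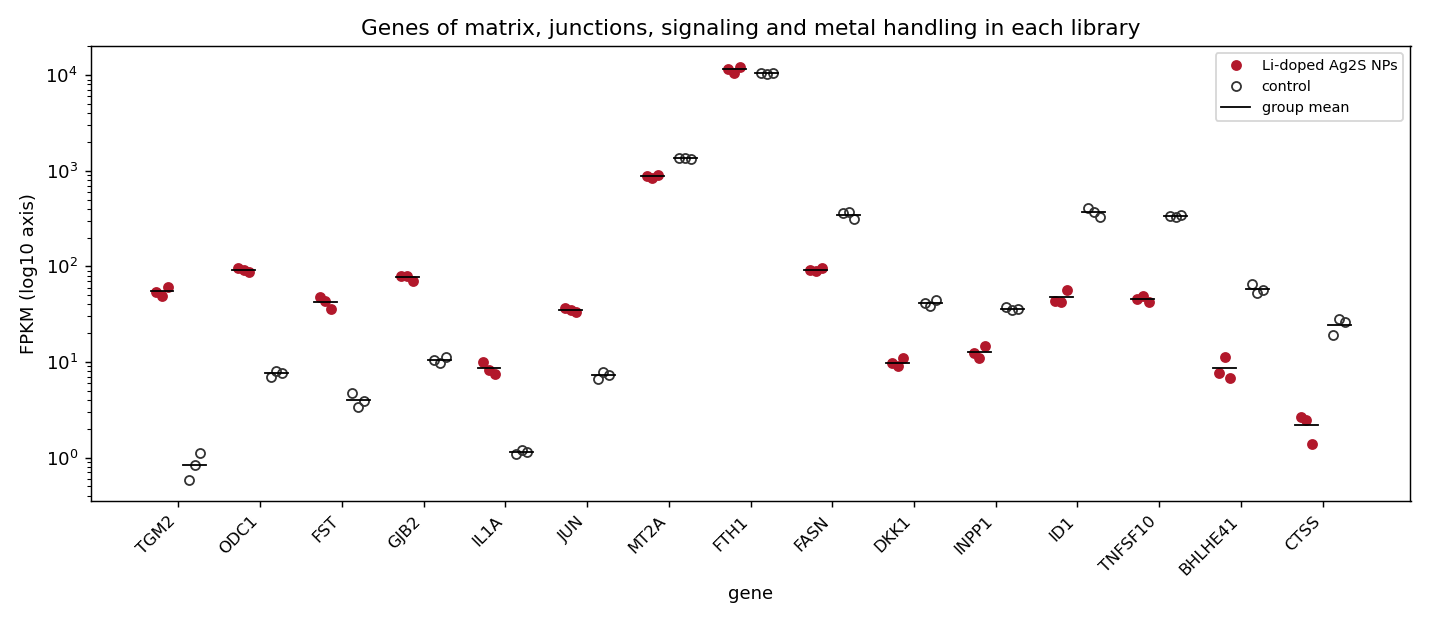
FPKM of 15 genes of matrix, junctions, signaling and metal handling (x axis) in each library on a log10 axis (y axis), treated libraries as filled circles left of control libraries as open circles, with the group mean as a bar. TGM2, ODC1, GJB2, FST, JUN and IL1A lie higher in all 3 treated libraries, and BHLHE41, TNFSF10, ID1, DKK1, INPP1, CTSS and FASN lie lower, as does MT2A, while FTH1 overlaps between the groups.

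In the TGF-β pathway the ligand and several of its inhibitors rose. TGFB1, the ligand, had 68.1, 57.5 and 67.2 FPKM in treated libraries, against 25.4, 24.6 and 22.7 FPKM in control libraries (1.40). FST, which binds activins, had 47.4, 43.6 and 36.2 FPKM in treated libraries, against 4.79, 3.41 and 3.89 FPKM in control libraries. FSTL3, its relative, had 45.7, 42.9 and 46.2 FPKM in treated libraries, against 10.4, 10.3 and 9.14 FPKM in control libraries (2.16). PMEPA1 (1.74) and SMAD7 (0.55), both induced by the pathway and both inhibitors of it, rose too, whereas the inhibitor gene SMAD6 fell (-1.32). Of its own signal carriers, SMAD3 had 39.7, 42.9 and 31.4 FPKM in treated libraries, against 78.9, 76.1 and 77.7 FPKM in control libraries (-1.04), whereas SMAD2 (-0.31), SMAD4 (-0.32) and the receptor gene TGFBR1 (-0.62) fell only without the scaling. Of 25 genes tested, 10 rose and 8 fell (median -0.22, scaled 11 and 4), 6 rose and 13 fell when scaled to equal sums, and 7 rose and 11 fell without replicate 14. Of 20 genes of the BMP branch, 4 rose and 12 fell (median -0.54), with ID1, an inhibitor of differentiation factors that BMP induces, at 44.0, 42.4 and 57.4 FPKM in treated libraries, against 408, 367 and 328 FPKM in control libraries (-2.95) and BMP3 at 0.08, 0.08 and 0.04 FPKM in treated libraries, against 3.82, 4.57 and 4.18 FPKM in control libraries (-4.69). The ligand genes BMP7 (0.94) and BMP2 (0.33) rose. SMAD4 lost its call without control replicate 1 or 3 or replicate 15 (-0.31 to -0.20). Without control replicate 1, 6 of the TGF-β genes rose.

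Ligands of the EGFR family split, and the receptor genes EGFR, ERBB2 and ERBB3 fell as deposited. AREG, an EGFR ligand of wounded skin, had 39.7, 35.6 and 33.9 FPKM in treated libraries, against 3.86, 4.57 and 4.5 FPKM in control libraries (3.05), the ligand gene NRG1 rose by 0.98, NRG2 (-2.40) and NRG4 (-1.15) fell, and TGFA and HBEGF were not called, at -0.03 and -0.13. EGFR itself had 120.0 ± 22.2 FPKM in treated cells and 151 ± 5.07 FPKM in control cells (SD, n = 3 each, -0.35), a fall that the scaling removed, as it did for ERBB2 (-0.25 as deposited and 0.01 scaled), and ERBB3 fell with and without the scaling (-1.13). Of 15 receptors and genes that control them, 3 rose and 9 fell (median -0.34, scaled 4 and 3). Without control replicate 2, 5 of these 15 fell. Of 24 genes that ERK signaling induces, 15 rose and 2 fell (median 0.31, scaled 18 and 1). IER3 led with 104, 97.2 and 119 FPKM in treated libraries, against 21.8, 24.6 and 26.1 FPKM in control libraries (2.14), followed by the factor genes ETV5 (1.67), ETV4 (1.26) and EGR1 (0.81) and the phosphatase gene DUSP4 (1.44), and LIF fell (-1.19). Of 16 subunits of AP-1, the dimeric factor of JUN and FOS proteins, 7 rose and 2 fell (median 0.17, scaled 12 and 2). JUN had 37.0, 34.8 and 33.7 FPKM in treated libraries, against 6.70, 7.92 and 7.36 FPKM in control libraries (2.25), MAF rose by 1.62 and FOS by 1.06, and FOSB (-0.99) and ATF2 (-0.59) fell. EGFR lost its call without control replicate 1, 2 or 3 or replicate 15 (-0.37 to -0.19) and ERBB2 without control replicate 2 or 3 or replicate 14 or 15 (-0.27 to -0.18). Without control replicate 1 or 2 or replicate 14 or 15, 1 of the genes that ERK induces fell.

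Lithium has known effects on Wnt signaling and on inositol recycling, so both were examined gene by gene. Of 16 feedback targets of the Wnt pathway, 5 had a mean FPKM of at least 1, and 2 rose and 2 fell (median 0.30, scaled 3 and 1). AXIN2, the most general of these targets, was listed at 0, 0 and 0 FPKM in treated libraries, against 0.04, 0.04 and 0.16 FPKM in control libraries, and LGR5, SP5 and NKD1 were listed near 0 as well. APCDD1, a Wnt inhibitor, rose to 24.3, 24.2 and 35.1 FPKM in treated libraries, against 4.94, 8.29 and 8.73 FPKM in control libraries (1.93), and DKK1, another inhibitor, fell to 9.67, 9.02 and 10.9 FPKM in treated libraries, against 41.1, 38.9 and 44.9 FPKM in control libraries (-2.07). Of 37 ligands, receptors and other parts, 16 rose and 9 fell (median 0.19). WNT3A was higher, with 2.13, 1.44 and 1.92 FPKM in treated libraries, against 0.03, 0 and 0 FPKM in control libraries, and WNT7A (1.68), WNT4 (1.09) and the receptor gene FZD10 (1.29) rose, while TCF7L2 (-0.99), LGR6 (-1.03) and APC (-1.17) fell. Of 9 inositol genes, 1 rose and 6 fell (median -0.59). INPP1, an enzyme that lithium inhibits, had 12.6, 10.9 and 14.8 FPKM in treated libraries, against 37.6, 35.1 and 36.0 FPKM in control libraries (-1.51), the inositol transporter gene SLC5A3 changed by -1.44 and the monophosphatase gene IMPA1 by -0.59, whereas IMPA2, of the same enzyme family, rose by 0.56. Without control replicate 1 or 2 or replicate 14 or 15, 1 of the Wnt feedback targets fell.

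Metallothioneins, small proteins that bind zinc, copper and silver through cysteines, are encoded by genes known to rise with metals. Of 5 tested, 1 rose and 2 fell (median -0.12, scaled 2 and 1), or 20% and 40%, close to the 17.0% and 44.6% of all genes tested. MT2A, the most abundant of them, fell, with 893, 849.9 and 906 FPKM in treated libraries, against 1352, 1362 and 1334 FPKM in control libraries (-0.61, adjusted p = 1.9e-05). MT1E (-0.12) and MT1F (0.19) were not called, MT1X fell by 0.19 on the log2 scale and stood at 0.07 with no call after scaling, and MT1G, at 0.42, 1.13 and 3.80 FPKM in treated libraries against 0, 1.03 and 0 FPKM in control libraries, rose, with an adjusted p of 0.115 without replicate 15. MT1G lost its call without control replicate 1 or 3 or replicate 15 (1.83 to 2.01) and MT1X without control replicate 2 or 3 or replicate 13 or 14 (-0.19 to -0.16). The metallothionein genes are near-identical and can share reads. Together they took 0.245% to 0.260% of the summed FPKM in treated libraries, against 0.367% to 0.371% in control libraries. Of 24 zinc and copper transporters and chaperones, 7 rose and 9 fell (median -0.02, scaled 10 and 5), with SLC39A14, a zinc and iron importer, at 43.6, 46.9 and 40.1 FPKM in treated libraries, against 22.3, 20.3 and 21.9 FPKM in control libraries (1.01), and SLC30A7 at -0.81. Of 13 iron genes, 3 rose and 7 fell (median -0.42), with the transferrin receptor gene TFRC at 49.5, 50.2 and 39.0 FPKM in treated libraries, against 91.0, 91.9 and 92.1 FPKM in control libraries (-0.996) among the fallen and the ferritin light chain gene FTL, at 2239, 2115 and 2834 FPKM in treated libraries, against 1235, 1284 and 1393 FPKM in control libraries (0.87), among the risen. The zinc and copper shares were 29.2% risen and 37.5% fallen, and the iron shares 23.1% and 53.8%. Among all genes tested they were 17.0% and 44.6%.

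Antioxidant genes rose more often than they fell, and heat shock genes moved both ways. Of 38 targets of NRF2, the factor that answers oxidants, and other antioxidant genes, 18 rose and 8 fell (median 0.22, scaled 26 and 5). NQO1, a quinone reductase, had 286, 267 and 301 FPKM in treated libraries, against 118, 115 and 112 FPKM in control libraries (1.31), and the aldo-keto reductase genes AKR1C3 (1.08) and AKR1C1 (0.89), near copies of each other, rose with it. Other NRF2 targets fell, TXNRD1 by 0.62 and GSR by 0.53 on the log2 scale, and the mitochondrial superoxide dismutase gene SOD2 had 41.2, 42.2 and 39.97 FPKM in treated libraries, against 114, 124 and 116 FPKM in control libraries (-1.52). Of 26 heat shock and chaperone genes, 7 rose and 9 fell (median -0.01, scaled 15 and 3), and 8 rose and 7 fell without replicate 15. HSPB1, a small heat shock protein of keratinocytes, had 2935, 2676 and 3561 FPKM in treated libraries, against 1664, 1629.6 and 1500.3 FPKM in control libraries (0.93), while the inducible HSPA1B (-0.80), whose near-identical copy HSPA1A shares its reads, and HSP90AA1 (-0.69) fell. Of 25 endoplasmic reticulum chaperones and sensors, 11 rose and 5 fell (median 0.08, scaled 15 and 3). SDF2L1 (1.32), XBP1 (1.25) and HSPA5 (0.56) rose and SEL1L (-0.61) and ATF6 (-0.53) fell. Without control replicate 2 or 3 or replicate 15, 3 of them fell.

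Targets of ATF4 rose more often than they fell. ATF4 is a factor whose translation increases when amino acids run short, and it induces transporters and the enzymes that make asparagine and serine. Of 28 targets tested, 15 rose and 5 fell (median 0.46, scaled 19 and 3). ASNS had 41.3, 35.4 and 34.4 FPKM in treated libraries, against 5.97, 7.70 and 7.20 FPKM in control libraries (2.40, adjusted p = 3.48e-08). ADM2 (3.02) and CHAC1, which breaks down glutathione (2.87), rose with it, as did the transporter genes SLC7A1 (1.03) and SLC1A4 (1.22) and the feedback inhibitor gene TRIB3 (0.74). ATF5 (-1.07), NUPR1 (-1.07) and DDIT4 (-0.67) fell. Of 13 enzymes of serine synthesis and one-carbon metabolism, 6 rose and 4 fell (median 0.22, scaled 6 and 2), and 5 rose and 5 fell when scaled to equal sums. In the serine pathway PSAT1 had 104, 87.7 and 71.2 FPKM in treated libraries, against 27.4, 27.9 and 30.3 FPKM in control libraries (1.60), and the mitochondrial folate enzyme genes MTHFD2 (0.98) and MTHFD1L (1.10) rose, whereas DLD (-0.67) and MTHFD2L (-1.22) fell. Of 20 cytosolic tRNA synthetases, 7 rose and 6 fell (median -0.00, scaled 11 and 3), 4 rose and 9 fell when scaled to equal sums and 6 rose and 7 fell without replicate 13. SARS (0.79) and GARS (0.58) were the largest rises and WARS, which interferon also induces, the largest fall (-0.80). Of 16 mitochondrial ones, 1 rose and 9 fell (median -0.37, scaled 1 and 3). Without control replicate 1 or 2, 3 of the ATF4 targets fell, without control replicate 1 or 2, 2 of the serine and one-carbon enzymes fell, and without control replicate 2, 2 of the mitochondrial synthetases rose.

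Promoter sequences of 3 groups were read to show the letters next to genes that moved together. They come from RefSeq on GRCh38.p14, as windows from 250 bases before to 50 bases after each transcription start, and a group member counted where any of its windows held the motif on either strand. The amino acid response element, to which ATF4 binds, was searched as TGATGNAA. It was found in 10 of 25 ATF4 targets matched, 8 of which rose and 1 fell, against 2.63% of tested genes and 3.62% of all windows. Of the 15 without it, 7 rose and 3 fell. Of 232 other tested genes that hold it, 17.2% rose and 48.7% fell, beside 17.0% and 44.6% of all genes tested. On the chromosomes searched for stretches, ASNS was the only risen member with the element in the 160 bases upstream of its first start. The stretch lies at chr7:97872409-97872568 on the minus strand.
ASNS: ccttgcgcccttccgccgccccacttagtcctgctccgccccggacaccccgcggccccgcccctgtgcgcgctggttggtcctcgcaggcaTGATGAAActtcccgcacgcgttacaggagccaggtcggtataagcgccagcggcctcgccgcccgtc
The stretch is shown 5′ to 3′ on the strand of the gene, with the element in capitals. A match of letters is a description of the window and says nothing of which factor was bound in these cells.

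ODC1, the rate-limiting enzyme of polyamine synthesis, had 95.5, 91.3 and 87.7 FPKM in treated libraries, against 7.05, 8.12 and 7.76 FPKM in control libraries (3.57, SE 0.07, adjusted p = 4e-11). No treated library came near a control library. SAT1, which breaks polyamines down, fell, with 160.1, 162 and 147 FPKM in treated libraries, against 289, 298 and 298 FPKM in control libraries (-0.92), and ARG2, which supplies ornithine, fell as well (-2.17). The antizyme genes, which destroy the ODC1 protein, rose by less, OAZ1 by 0.37 and OAZ2 by 0.20. Of 15 genes of polyamine synthesis and turnover, 6 rose and 4 fell (median 0.20, scaled 8 and 2), and 3 rose and 4 fell when scaled to equal sums. Without control replicate 2, 2 of them rose. Glycolysis and hypoxia genes rose, with 18 of 28 risen and 2 fallen, among them CA12 (2.38), BNIP3 (1.56) and NDRG1, at 439, 449.6 and 429.9 FPKM in treated libraries, against 166, 159.9 and 169 FPKM in control libraries (1.41), and the fallen were PFKFB3 (-0.73) and ALDOC (-0.70). Among targets of the aryl hydrocarbon receptor, a sensor of planar compounds, CYP1B1 had 32.8, 37.7 and 24.9 FPKM in treated libraries, against 8.77, 9.69 and 9.51 FPKM in control libraries (1.74) and UGT1A6 rose by 1.53. Of its 8 targets tested, 3 rose and 2 fell (median 0.17, scaled 5 and 1). Without replicate 15, 5 of these targets rose. OAZ1 lost its call without control replicate 1 or 2 (0.35 to 0.36) and OAZ2 without control replicate 2 (0.17).

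Genes of lipid synthesis fell. Of 28 such genes for the synthesis or uptake of cholesterol, 2 rose and 23 fell (median -0.66, scaled 5 and 18). SC5D, an enzyme of the last steps, had 48.5, 52.5 and 45.5 FPKM in treated libraries, against 151, 168 and 175 FPKM in control libraries (-1.75). PMVK (0.60) and TM7SF2 (0.62) rose against it. Of 22 such genes for fatty acids, 2 rose and 14 fell (median -0.64, scaled 5 and 12). FASN, the fatty acid synthase, had 91.6, 89.3 and 96.9 FPKM in treated libraries, against 361, 367 and 315 FPKM in control libraries (-1.91), ACLY fell by 1.03 and the factor gene SREBF1 by 0.64 on the log2 scale, while the desaturase gene FADS3 rose by 1.12. Without control replicate 3, 1 of the genes of fatty acid synthesis rose.

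Genes that interferon induces fell. Interferon signals through STAT2 and IRF9, among others, which bind response elements in the promoters of antiviral genes. Of 46 interferon effectors, 2 rose and 39 fell (median -1.25). IFI44L had 0.13, 0.43 and 0.4 FPKM in treated libraries, against 14.3, 11.3 and 11.5 FPKM in control libraries. MX1 had 7.74, 7.19 and 7.47 FPKM in treated libraries, against 39.0, 36.8 and 46.1 FPKM in control libraries (-2.42). IFI27 had 208, 223 and 307 FPKM in treated libraries, against 706, 703 and 769 FPKM in control libraries (-1.58). No value of these 3 genes overlapped between the groups. OASL stood against the rest, with 53.2, 52.8 and 70.6 FPKM in treated libraries, against 34.1, 33.1 and 33.6 FPKM in control libraries (0.79), RSAD2 rose by 0.28, and ISG15 was not called, at 206 ± 57.3 FPKM in treated and 205 ± 17.6 FPKM in control cells (SD, n = 3 each). Of 29 sensors and interferon factors, 1 rose and 20 fell (median -0.44, scaled 6 and 13). The signal carriers IRF9 (-1.45) and IRF7 (-1.64) fell, the viral RNA sensor TLR3 had 3.40, 3.37 and 2.81 FPKM in treated libraries, against 12.7, 11.6 and 10.4 FPKM in control libraries (-1.83), and IRF3 alone rose (0.22). RSAD2 lost its call without control replicate 1 or replicate 13 or 14 (0.21 to 0.24) and IRF3 without control replicate 1, 2 or 3 or replicate 15 (0.14 to 0.24).

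The element made of GAAA, any 2 bases and GAAA again, to which interferon-activated factors bind, was found in 24 of the 34 interferon effectors matched by symbol, against 3.84% of the 9219 tested genes matched. Of those 24, 20 fell and 1 rose, and of the 10 without it 10 fell. Of 330 other tested genes that hold it, 51.8% fell and 11.2% rose, beside 44.6% and 17.0% of all genes tested. Among all 35116 windows, 3.57% hold it. Among genes of the chromosomes searched for stretches, the 3 members with the largest falls that hold it in the 160 bases upstream of their first start are shown in the same way, with the element in capitals, on either strand.
IFI44L: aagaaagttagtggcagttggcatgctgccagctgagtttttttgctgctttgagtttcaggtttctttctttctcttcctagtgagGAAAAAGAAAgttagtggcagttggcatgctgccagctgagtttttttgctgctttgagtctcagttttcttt
RTP4: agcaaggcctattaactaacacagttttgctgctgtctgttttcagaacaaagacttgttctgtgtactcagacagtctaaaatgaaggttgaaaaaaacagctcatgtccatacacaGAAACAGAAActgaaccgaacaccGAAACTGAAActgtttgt
IFI6: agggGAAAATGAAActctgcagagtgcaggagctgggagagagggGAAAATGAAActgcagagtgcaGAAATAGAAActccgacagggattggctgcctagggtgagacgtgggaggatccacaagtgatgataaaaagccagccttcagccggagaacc
These stretches lie at chr1:78620288-78620447 on the plus strand, chr3:187368225-187368384 on the plus strand and chr1:27672193-27672352 on the minus strand. IFI6, which holds the element 3 times, had 68.7, 51.1 and 68.9 FPKM in treated libraries, against 326, 282 and 286 FPKM in control libraries. RTP4, which came in through this choice of sequences after its values were seen and holds the element in 2 places, had 0.78, 1.02 and 0.65 FPKM in treated libraries, against 7.14, 6.46 and 7.34 FPKM in control libraries.

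Of 28 MHC and antigen processing genes, 3 rose and 13 fell (median -0.18, scaled 7 and 6), with 46.4% fallen close to the 44.6% of all genes tested. PSMB10, an immunoproteasome subunit, had 20.4, 18.1 and 28.8 FPKM in treated libraries, against 89.2, 77.6 and 81.0 FPKM in control libraries (-1.90), and CIITA, the switch of class II genes, fell by 1.42 on the log2 scale. The class I genes HLA-B (-0.02) and B2M (-0.13) were not called, and HLA-E rose by 0.29, though HLA genes resemble each other and can share reads.

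The cytokine genes IL1A, IL1B and IL6 rose and the chemokine genes CCL2, CXCL8 and CXCL1 fell. Of 20 tested, 5 rose and 11 fell (median -0.49). The risen included alarm cytokines, IL1A at 10.1, 8.34 and 7.42 FPKM in treated libraries, against 1.10, 1.19 and 1.15 FPKM in control libraries (2.80), IL1B (1.62), IL6 (1.21) and IL18 (0.42), together with IL11, a TGF-β target, at 23.9, 21.7 and 21.8 FPKM in treated libraries, against 3.92, 5.78 and 4.42 FPKM in control libraries (2.25). Chemokines fell, CCL2 to 16.4, 15.9 and 16.9 FPKM in treated libraries, against 73.5, 71.1 and 76.5 FPKM in control libraries (-2.16), CXCL8 by 1.80 and CXCL1 by 0.82 on the log2 scale. TNFSF10, the death ligand TRAIL that interferon induces, had 45.2, 48.6 and 42.7 FPKM in treated libraries, against 334, 329.9 and 341 FPKM in control libraries (-2.88). Among 22 NF-kB feedback genes, 3 rose and 11 fell (median -0.31, scaled 6 and 8), or 13.6% and 50%, close to the 17.0% and 44.6% of all genes tested. BIRC3 (-2.35), TNFAIP2 (-1.90) and NFKBIZ (-1.53) fell and TNFAIP3 rose (0.71).

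Genes of cell division fell. All 40 mitosis genes fell (median -1.68), and 39 stayed fallen after scaling, the exception being PTTG1, which went to 0.03. KIF20A had 7.03, 7.27 and 5.31 FPKM in treated libraries, against 42.5, 41.9 and 40.5 FPKM in control libraries (-2.66). TOP2A had 18.4, 19.0 and 14.7 FPKM in treated libraries, against 81.6, 85.7 and 82.2 FPKM in control libraries (-2.26). CCNB1, the mitotic cyclin, had 46.0, 48.7 and 44.7 FPKM in treated libraries, against 112, 108 and 108 FPKM in control libraries (-1.23). All 40 genes of DNA replication and nucleotide synthesis fell (median -0.89), and 32 did after scaling. RRM2, a subunit of ribonucleotide reductase, had 8.42, 7.34 and 6.14 FPKM in treated libraries, against 28.4, 24.2 and 24.0 FPKM in control libraries (-1.80). Of 28 G1 genes, 5 rose and 17 fell (median -0.41). CDKN1A, the inhibitor p21, had 249, 239.7 and 284 FPKM in treated libraries, against 117, 124 and 117 FPKM in control libraries (1.11), CCNE1 rose by 0.98 and CCND1 by 0.32, and the partner gene CCNE2 (-2.16), the inhibitor gene CDKN2C (-1.95) and E2F2 (-1.53) fell. PTTG1 lost its call without control replicate 2 or 3 or replicate 13 or 14 (-0.23 to -0.17).

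Promoters of mitosis genes commonly hold a CCAAT box, bound by NF-Y, and the element TTTGAA, bound by repressor complexes in resting cells. CCAAT was found in 28 of 33 mitosis genes matched, against 43.5% of tested genes and 34.6% of all windows, and TTTGAA in 24 of 33, against 13.2% of tested genes and 15.2% of all windows. The 28 mitosis genes with CCAAT and the 5 without it all fell, as did the 24 with TTTGAA and the 9 without it. Of 3986 other tested genes with CCAAT, 48.2% fell and 15.5% rose. Of 1197 other tested genes with TTTGAA, 54.3% fell and 11.9% rose, beside 44.6% and 17.0% of all genes tested. Among genes of the chromosomes searched for stretches, the 3 members with the largest falls that hold both elements upstream are shown, with CCAAT or its complement ATTGG and TTTGAA or its complement TTCAAA in capitals. Where both overlap they run together.
MKI67: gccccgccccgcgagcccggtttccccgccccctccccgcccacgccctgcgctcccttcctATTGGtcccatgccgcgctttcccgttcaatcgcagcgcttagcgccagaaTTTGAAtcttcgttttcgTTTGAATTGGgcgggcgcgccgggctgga
TOP2A: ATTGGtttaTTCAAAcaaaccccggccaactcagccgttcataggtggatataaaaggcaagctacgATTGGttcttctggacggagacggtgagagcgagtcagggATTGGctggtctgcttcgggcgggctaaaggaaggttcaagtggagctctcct
DLGAP5: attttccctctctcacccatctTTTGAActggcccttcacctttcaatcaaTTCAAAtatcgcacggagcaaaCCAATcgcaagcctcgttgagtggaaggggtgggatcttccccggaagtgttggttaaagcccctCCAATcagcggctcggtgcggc
They lie at chr10:128126424-128126583, chr17:40417897-40418056 and chr14:55191586-55191745, all on the minus strand. MKI67, the proliferation marker Ki-67, which came in through the same choice, had 5.38, 4.96 and 4.02 FPKM in treated libraries, against 26.7, 28.6 and 30.1 FPKM in control libraries (-2.55). DLGAP5, a spindle protein gene, had 6.51, 7.19 and 5.94 FPKM in treated libraries, against 28.9, 29.3 and 29.3 FPKM in control libraries (-2.14).

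Targets of p53 moved both ways. Of 24 tested, 5 rose and 10 fell (median -0.24, scaled 9 and 7), with MDM2 (-1.09) and TP53INP1 (-1.14) among the fallen. These shares, 20.8% and 41.7%, are close to the 17.0% and 44.6% of all genes tested. Of 27 genes of the BCL2 family and death receptors, 4 rose and 14 fell (median -0.27, scaled 5 and 7), or 14.8% and 51.9%. BAD (1.10) and BOK (1.10), which promote death, rose, and BIK (-1.02) and HRK (-2.01), which do so too, fell. Of 20 Notch genes, 4 rose and 8 fell (median -0.13, scaled 8 and 7), or 20% and 40%, again close to the shares of all genes tested. NOTCH1, which drives keratinocyte differentiation, had 16.2, 16.1 and 12.9 FPKM in treated libraries, against 33.5, 33.2 and 27.4 FPKM in control libraries (-1.05), and HES7 was higher (3.43), with 4.5, 1.37 and 1.95 FPKM in treated libraries, against 0.21, 0 and 0.26 FPKM in control libraries. Of 21 YAP targets, 4 rose and 7 fell (median -0.06, scaled 7 and 4), with CYR61 risen (1.42) and IGFBP3 fallen (-0.98). The clock repressor BHLHE41 had 7.62, 11.4 and 6.86 FPKM in treated libraries, against 65.8, 52.3 and 56.8 FPKM in control libraries (-2.77), and PER2 (-1.13) and CLOCK (-0.88) fell beside it. Of 17 clock genes, 2 rose and 6 fell (median 0.02, scaled 6 and 6). Without control replicate 1, 4 of the clock genes rose.

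Guidance molecules, which steer axons and also sort epithelial cells by contact, moved both ways. Of 14 ephrins and Eph receptors, 6 rose and 5 fell (median 0.18, scaled 7 and 1). The ligand gene EFNA3 had 42.0, 39.9 and 46.2 FPKM in treated libraries, against 12.9, 12.5 and 13.2 FPKM in control libraries (1.72), and EFNB3 (1.66), EFNB1 (1.22) and EFNB2 (0.84) rose with it. The receptor gene EPHA2 had 10.2, 10.5 and 8.06 FPKM in treated libraries, against 18.3, 18.4 and 19.6 FPKM in control libraries (-0.97). Of 24 semaphorins and plexins, 5 rose and 10 fell (median -0.24), or 20.8% and 41.7%, close to the 17.0% and 44.6% of all genes tested. SEMA5A (-1.85), SEMA3A (-1.81) and SEMA6D, at 6.48, 8.17 and 4.16 FPKM in treated libraries, against 19.3, 20.2 and 17.3 FPKM in control libraries (-1.63), fell, and SEMA6B (1.25) rose. Without control replicate 1, 2 or 3 or replicate 13 or 15, 3 of the ephrins and Eph receptors fell.

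**Figure D4:**
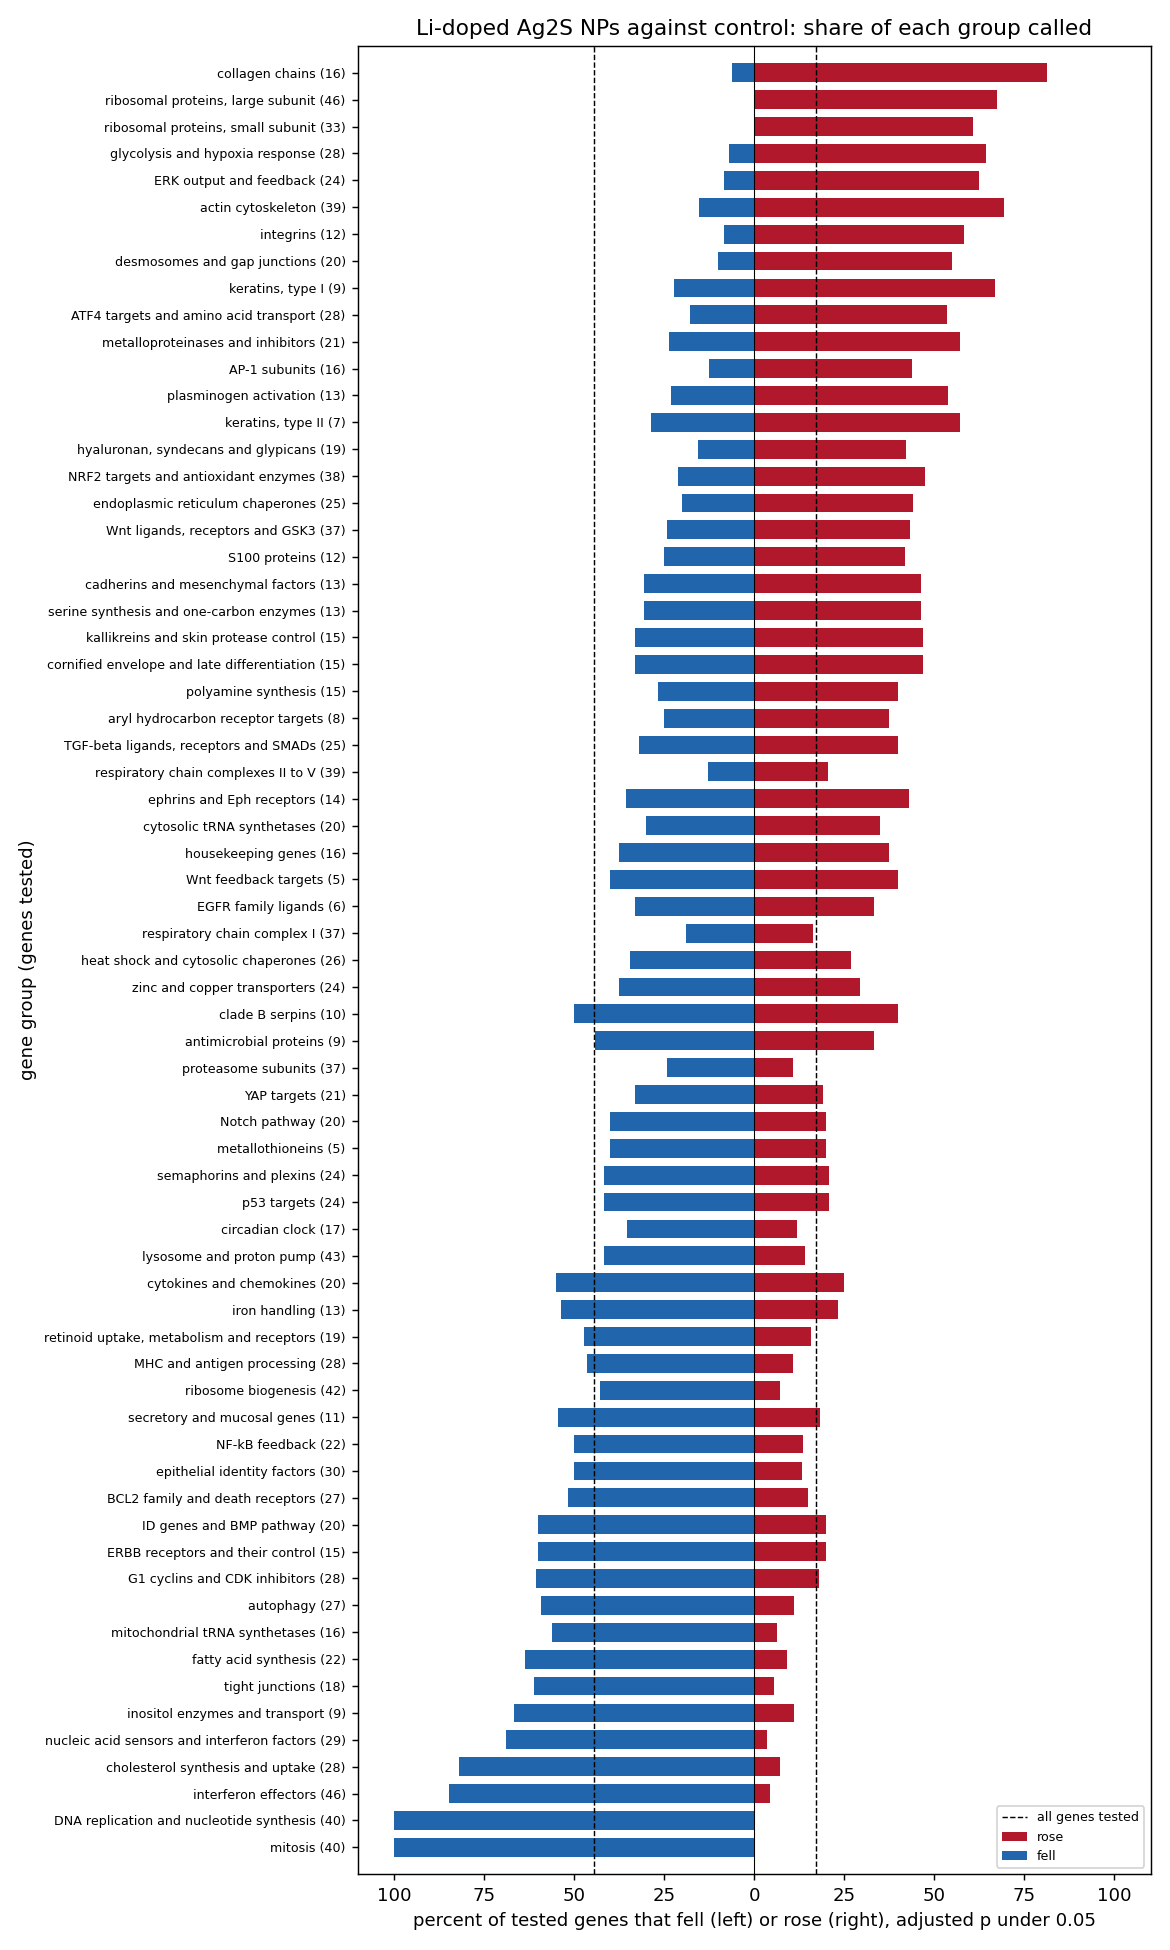
Share of the tested genes of each group (y axis) that rose (right) or fell (left), in percent (x axis), values as deposited, with the number of tested genes after each name. The dashed lines mark the shares among all genes tested, 17.0% risen and 44.6% fallen; mitosis lies at 100% fallen and the collagen chains at 81.2% risen.

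Ribosomal protein genes rose, most of all in replicate 15. Of 46 of the large subunit 31 rose, and of 33 of the small subunit 20 rose. Their median changes in replicates 13, 14 and 15 were 0.20, 0.23 and 0.50 for the large and 0.18, 0.22 and 0.54 for the small subunit. Without replicate 15, 27 rose and 2 fell in the large subunit, and their many pseudogenes can take part of their reads. Of 42 genes that build ribosomes, 3 rose and 18 fell (median -0.22, scaled 8 and 8). These are 7.14% and 42.9%, beside 17.0% and 44.6% of all genes tested, so the fallen share is close to that of all genes. Of 37 subunits of respiratory complex I, 6 rose and 7 fell (median 0.01, scaled 13 and 4), and 9 rose and 7 fell without replicate 14. Of 39 subunits of complexes II to V, 8 rose and 5 fell (median 0.05, scaled 19 and 2), 5 rose and 11 fell when scaled to equal sums, and 6 rose and 9 fell without replicate 15. Of 37 proteasome subunits, 4 rose and 9 fell (median -0.01, scaled 19 and 2). Without control replicate 3, 1 of the genes that build ribosomes rose, without control replicate 3, 2 of complex I rose, without control replicate 2, 3 of complex I rose, without control replicate 3, 5 of complexes II to V rose, without replicate 15, 9 of complexes II to V fell, and without control replicate 2 or 3 or replicate 15, 2 of the proteasome subunits rose.

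Of 43 lysosomal and proton pump genes, 6 rose and 18 fell (median -0.11, scaled 15 and 8), and 41.9% fallen is close to the 44.6% of all genes tested. Members with large falls were among them. CTSS, a cathepsin of antigen processing, had 2.67, 2.50 and 1.39 FPKM in treated libraries, against 19.3, 28.3 and 26 FPKM in control libraries (-3.46). CTSH had 221, 225 and 252 FPKM in treated libraries, against 663, 664 and 668 FPKM in control libraries (-1.52). ATP6V1B1, a proton pump subunit of specialised epithelia, had 0.44, 1.09 and 1.26 FPKM in treated libraries, against 12.6, 12.6 and 18.1 FPKM in control libraries, and LAMP3 changed by -1.91. Of 27 autophagy genes, 3 rose and 16 fell (median -0.24, scaled 4 and 8), with MAP1LC3A (1.20) risen and PINK1 (-1.07) fallen.

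The Li-doped group was last set against cells given undoped Ag2S NPs at the same dose, in the same model and without the control libraries in the contrast. Undoped particles are silver sulfide without lithium. The Li-doped group differed from the undoped group in 1203 genes that were higher (10.1%) and 1921 that were lower (16.1%). With median-ratio scaling 1440 were higher and 1437 lower, so the excess of lower genes was not seen there. With every library scaled to an equal sum, 699 were higher and 2348 lower. Without the undoped replicate 7 the counts were 668 higher and 1052 lower, and without the undoped replicate 8 they were 754 higher and 1191 lower. INPP1 had 12.8 ± 1.94 FPKM with Li-doped and 15.2 ± 2.00 FPKM with undoped particles (SD, n = 3 each), a difference of -0.25 (SE 0.12, adjusted p = 0.15). For IMPA2 the difference was 0.33 (adjusted p = 0.0234), for APCDD1 0.94 (adjusted p = 0.00766) and for DKK1 0.14 (SE 0.11, adjusted p = 0.366). The difference of INPP1 passed the test without replicate 15 (-0.36, adjusted p = 0.0408), when scaled to equal sums (-0.35, adjusted p = 0.0397) and with weights per library (-0.33, adjusted p = 0.0108). That of IMPA2 did not pass it when scaled to equal sums (0.23, adjusted p = 0.078) or without replicate 13 or 15 or without any 1 undoped library (0.26 to 0.34, adjusted p of 0.058 to 0.0665). Among the leading genes of the keratinocyte response, KRT16 was higher with Li-doped particles by 1.54 (adjusted p = 9.46e-06), KRT17 by 0.80 and KRT6A by 1.14. Of the gene groups with at least 10 genes tested, 7 had more than 40% of them called in 1 direction, against the 10.1% higher and 16.1% lower of all genes. Of 28 ATF4 targets, 16 were higher with Li-doped than with undoped particles, and of 39 respiratory chain genes of complexes II to V, 19. The second count was 9, 15 and 14 without the undoped replicate 7, 8 and 9, and 13 without replicate 15. It was 11 with no filter or in the fit of the 2 groups alone. At none of these counts did the respiratory chain group pass 40%. Of 28 genes of cholesterol synthesis and uptake, 17 were higher and 2 lower with Li-doped than with undoped particles. The other groups held more lower than higher members. Of 25 endoplasmic reticulum chaperones, 13 were lower with Li-doped particles, of 40 mitosis genes 19, of 13 genes of plasminogen activation 9 and of 21 metalloproteinases and inhibitors 9, with 1 or 2 members higher in each of the last 3. The mitosis count was 13 in the fit of the 2 groups alone, 15 without replicate 15 and 14 to 16 without any 1 undoped library. That of metalloproteinases and inhibitors was 6 without any 1 undoped library or without replicate 14. At these counts neither group passed 40%.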

How the data were processed

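RNA of HaCaT cells was sequenced as paired reads of 150 bases. The authors aligned the reads with TopHat and made FPKM per gene and library with Cufflinks 2.1.1 and Cuffdiff (multi-read and fragment bias correction on), and the values were deposited with 2 decimals. The sources used here do not give the genome build of the alignment. The deposited table also holds the authors' own comparisons (fold changes, p and q values), which were not used. Counts could not be had from FPKM, so the depth of each library is unknown and no counting interval is given.

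Values of 17653 genes in 9 libraries (3 each of Li-doped and undoped particles at 320 μg/mL and control) were taken as log2(FPKM + 0.1). The 11903 genes whose mean FPKM over the 9 libraries reached 1 were fitted with limma 3.58.1 in R 4.3.3 (lmFit and eBayes with a trend, group as the only term, two-sided) and adjusted by Benjamini and Hochberg. The study used Cuffdiff, which needs the reads.

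The members, gene lists and tests were chosen with earlier results of these data known. The 73 lists, 5 of them of markers, were described by counts and medians, with no test of a list. Genes were named by rule: the 15 largest rises and the 15 largest falls (adjusted p under 0.05, higher group at a mean FPKM of 5 or more, groups not overlapping), and, in each list, every member where 16 or fewer were tested, otherwise up to 8 with the smallest p-values each way, the 4 most abundant and those against the common direction. TGFB1, TIMP1, COL1A1 and TGM2 were named because the study discusses them, and RTP4 and MKI67 through the choice of sequences. Some genes that the rule names are not reported here.

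Alternatives were other pseudocounts, filters, scalings, a fit on the 2 groups alone, robust variances, weights per library and each library left out in turn. Those on the contrast between the particles were added after the data were seen. Promoter windows came from RefSeq on GRCh38.p14 and were matched by symbol.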

Additional observations from a re-analysis of the deposited data

How the results depend on the processing

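The counts moved with the scaling. With median-ratio scaling 3366 genes rose and 3092 fell, 560 of them more than 2-fold, and the gene lists with more risen than fallen members numbered 44, against 29 as deposited, and those with more fallen 19, against 35. Scaled to equal sums, 19 lists had more risen members and 699 genes were higher with Li-doped than with undoped particles. That last count was 2002 with weights per library. Falls of more than 2-fold numbered 699 with a pseudocount of 1 and 669 with a mean FPKM of at least 5, and rises of more than 2-fold numbered 865 with no filter and 300 with a mean FPKM of at least 5, where fewer genes were tested. The log2 fold change of MT1X (0.0685), of PTTG1 (0.0337) and of ERBB2 (0.00506) changed sign under median-ratio scaling, with no call there. The balance of risen and fallen genes turned in 13 of 68 lists under median-ratio scaling, in 7 when scaled to equal sums and in 3 with weights per library (heat shock genes, respiratory complexes II to V and the TGF-β pathway). The cause was not tested.

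With each library left out in turn, 1734 to 1987 genes rose and 4655 to 5328 fell, 536 to 564 rose and 848 to 1338 fell more than 2-fold, 26 to 30 lists had more risen and 33 to 36 more fallen members, and 668 to 1322 genes were higher and 1052 to 2246 lower with Li-doped than with undoped particles. Of 312 named genes, 12 lost their call under median-ratio scaling, 3 of them those that changed sign, and 9 when scaled to equal sums, 5 with no filter, 4 in the fit of the 2 groups alone, 3 with weights per library and 1 with a pseudocount of 1. Leaving out 1 library cost 5 to 11 of them their call. No paired analysis was possible because the groups share no replicate number. The files hold no counts, so depth sets no stated limit, and genes below the filter were given by level alone.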
